A study of Mus musculus with 7 samples.

Results

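The genes described here are heat shock proteins and chaperones of mouse bone marrow progenitors. Their symbols begin with Hsp, Dnaja, Dnajb, Dnajc, Cct or Pfdn followed by the letter or digit that numbers the family, and Tcp1 was added. The members are 81 of 23930 genes, and 70 of them had enough counts to be tested. Some members of these families, among them cytosolic HSP70 and HSP90 genes and the main mitochondrial chaperonin, are not among the 81. The class sizes and shares of counts given here therefore do not cover the whole families. By class there were 2 HSP90 genes, 12 HSP70 and HSP110 genes, 6 small heat shock proteins, 1 mitochondrial chaperonin gene, 42 J proteins, 10 genes of the CCT/TRiC ring and 5 prefoldin subunits. The remaining 3 symbols, Hspbp1, Hspbap1 and Hspg2, were caught by their spelling. Hspbp1 and Hspbap1 are named for proteins that bind heat shock proteins, and Hspg2 encodes perlecan, a proteoglycan of basement membranes and no chaperone. Among the numbered symbols, Hspb11 encodes a subunit of the intraflagellar transport machinery of cilia rather than a classical small heat shock protein.

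Expression had been measured by Ion AmpliSeq, a targeted form of RNA sequencing that counts reads of 1 short amplicon per gene, in 7 libraries of cells sorted from bone marrow by flow cytometry. The pMT-10 strain overexpresses interleukin-10 from a transgene whose metallothionein promoter responds to zinc, and C57BL/6 (BL/6) was the control strain. Mice of both strains drank zinc-supplemented water for 15 days, so zinc, itself an inducer of stress-response genes, was shared by all groups. Common myeloid progenitors (CMPs) gave 2 libraries from BL/6 and 2 from pMT-10 mice. Cells without lineage markers but with SCA-1 and c-KIT (LSK), here those with CD150 and CD48 on their surface, gave 2 pMT-10 libraries, and pMT-10 hematopoietic stem cells (HSC) gave 1. The labels give no age, no sort gates for CMPs and HSC, and no statement that replicates came from separate animals. The p-values therefore measure only the spread between these libraries, which may be technical.

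Chaperones bind unfolded or partly folded proteins and release them in cycles driven by ATP. HSP70 proteins take hold of short exposed stretches, J proteins bring substrates to HSP70 and start its ATP cycle, HSP110 proteins help to reload it, and HSP90 acts later on kinases, receptors and other clients. Prefoldin hands new actin and tubulin to the CCT/TRiC ring, which encloses and folds them. Small heat shock proteins hold unfolded proteins without using ATP. The endoplasmic reticulum and the mitochondrion have chaperones of their own, and the genes for many cytosolic chaperones respond to heat shock factor while those of the endoplasmic reticulum respond to the unfolded protein response. Blood-forming stem cells are known for a low rate of protein synthesis and for their sensitivity to protein misfolding.

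Libraries held 7372430 (HSC) to 13854314 counts (LSK replicate 2). Between 10104 and 10620 genes reached 10 counts in a library. The pMT-10 CMP and LSK libraries lie in one deposited table (the first table) and the BL/6 CMP and HSC libraries in another (the second table), so that table and strain cannot be told apart in the CMPs, nor table and cell type in the comparisons with HSC. Only LSK against pMT-10 CMPs lies within 1 table. The 2 pMT-10 CMP libraries stood further apart than the other pairs: the SD of the log2 difference over the tested genes was 0.82, against 0.47 in LSK cells and 0.39 in BL/6 CMPs. Il10 itself had 0 to 2 counts in every library and gave no check of the strain labels. The summed level of 9 stem cell and sort markers was highest in HSC (1165 CPM, counts scaled to a common library total), followed by LSK cells (619 to 664 CPM) and the CMPs (352 to 541 CPM). Against LSK cells the fold change of 8 of the 9 was positive in HSC, and 5 of these passed an adjusted p under 0.05. Cd48 was lower (6.49 CPM against 63.6 and 40.5 CPM) and passed as well. That is 66.7% called, against 18.8% of all tested genes. Between the strains 4 of the 9 differed at an adjusted p under 0.05 (44.4%, against 28.0% of all tested genes). Ly6a and Cd48 were higher in pMT-10 CMPs, and Slamf1 and Kit lower. Kit was at 95.3 and 140 CPM there, 303 and 274 CPM in BL/6 CMPs and 158 CPM in HSC. For 6 myeloid progenitor markers the summed level was 496 to 787 CPM in pMT-10 CMPs and 205 to 229 CPM in BL/6 CMPs. It was 107 CPM in HSC, with Csf1r and Cebpe at 0, and 41.2 to 50.5 CPM in LSK cells. Most of each sum was Ctsg and Prtn3, and in HSC Prtn3 alone was at 92.0 CPM. Between the strains the fold change of 5 of the 6 was positive in pMT-10 CMPs, and 4 passed (66.7%, against 28.0% of all tested genes): Elane, Ctsg, Prtn3 and Cebpe. Mpo was at 8.39 and 6.03 CPM against 12.1 and 16.8 CPM in BL/6 CMPs, and did not pass. The 2 erythroid markers summed to 85.9 to 102 CPM in BL/6 CMPs and 30.1 to 33.0 CPM in pMT-10 CMPs. The part of these markers in the differences between the strains was not tested. CPM values are scaled by library size within each library, and fewer cells of a type cannot be told apart from less RNA per cell.

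The 81 members together took 1.86 to 2.31% of the counts of a library, which is not the share of the whole families. Without Hsp90ab1, the member with the most counts, the share was 1.05 to 1.31%. In pMT-10 against BL/6 CMPs, 11 of 70 tested members (15.7%) were called at an adjusted p under 0.05, where 28.0% of all 11429 tested genes were called. Of the members 5 rose and 6 fell, against 14.3% and 13.7% of all genes, and the median log2 fold change was -0.02 over the members and 0.01 over all tested genes. In LSK cells against pMT-10 CMPs, 2 members (2.86%) rose and 0 fell, against 11.8% of all genes called, 5.92% higher and 5.92% lower. There 6 members were higher and 5 lower at an unadjusted p under 0.05 in edgeR, and DESeq2 called 2 higher and 2 lower. At an adjusted p under 0.05, HSC differed from LSK cells in 12 members (17.1%, 8 higher and 4 lower), against 18.8% of all genes (10.6% higher and 8.15% lower). HSC differed from pMT-10 CMPs in 16 members (22.9%, 9 higher and 7 lower), against 25.5% of all genes (13.8% higher and 11.7% lower). In each comparison the members were called at a share below or near that of all genes, and their median log2 fold changes, -0.08 in LSK cells against pMT-10 CMPs, 0.11 in HSC against LSK cells and 0.05 in HSC against pMT-10 CMPs, lay close to those of all tested genes (-0.01, 0.03 and 0.02).

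In all, 26 members were called in at least 1 comparison, 13 in 2 or more, and 44 in none. The 4 comparisons share libraries, so a gene that stands apart in 1 group is called in several of them. HSC is a single library, which was never left out, and the spread in its tests comes from the other groups. The number of calls depended on single libraries: leaving out 1 replicate at a time gave 0 to 28 called members in pMT-10 against BL/6 CMPs, 0 to 22 in LSK cells against pMT-10 CMPs, 1 to 25 in HSC against LSK cells and 5 to 29 in HSC against pMT-10 CMPs. The high counts came without pMT-10 CMP replicate 1 (28, 22, 25 and 28 in that order) or replicate 2 (23, 11, 25 and 29), and the low counts without an LSK or a BL/6 CMP library. Over the same fits the share of all tested genes called moved as well, from 5.12 to 46.2%, 0.382 to 37.5%, 2.31 to 42.2% and 15.2 to 45.8% in that order. Leaving out a library outside a comparison changes the shared estimate of spread and, to a lesser degree, the scaling, the genes tested and the fold changes.

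**Figure D1:**
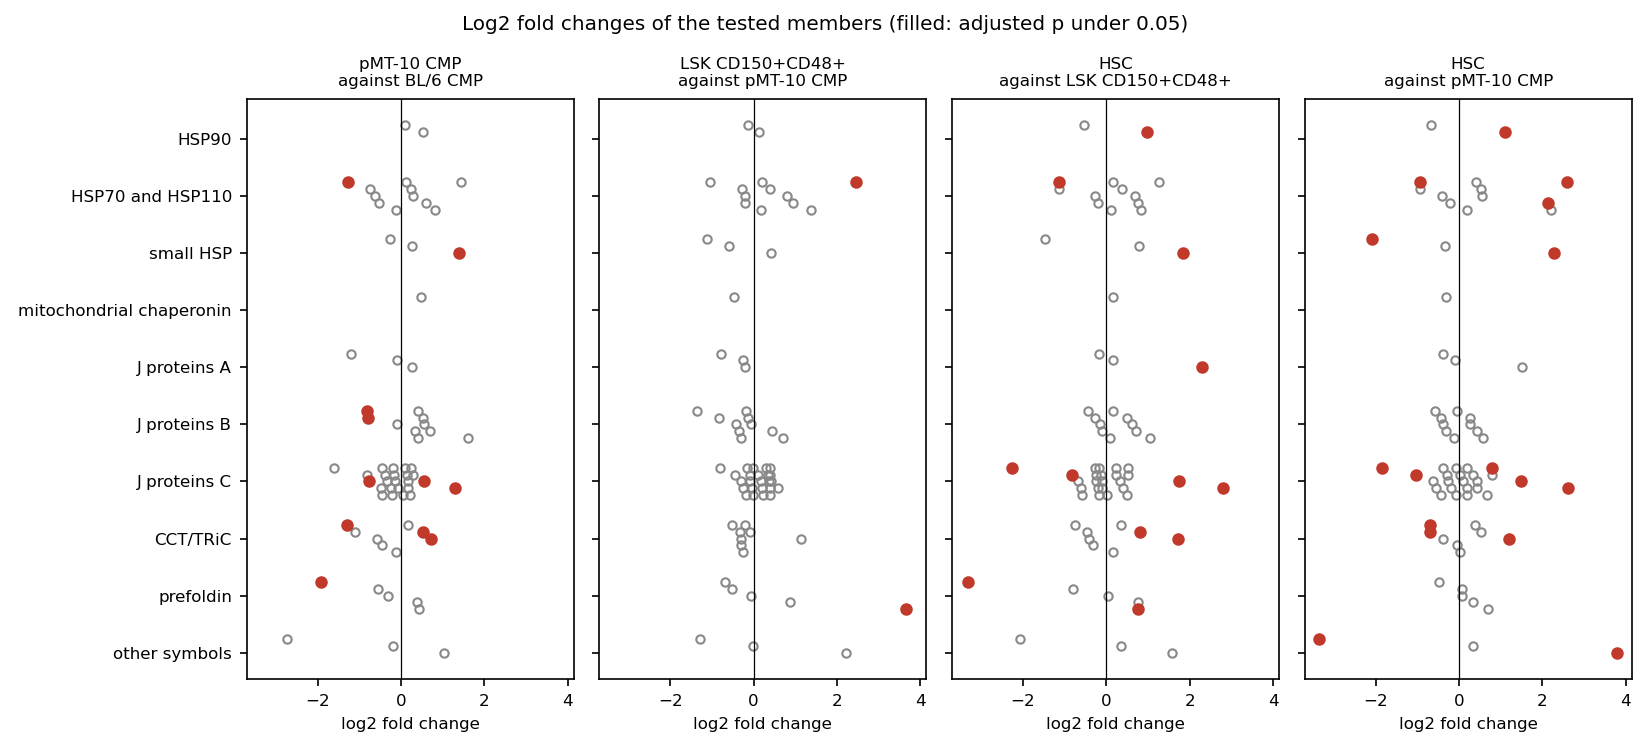
Log2 fold change (horizontal axis) of each tested member, by chaperone class, in the 4 comparisons. Filled red points are members with an adjusted p under 0.05 (11, 2, 12 and 16 of 70) and open points the others. Calls lie on both sides of 0 in 3 of the 4 comparisons.

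The HSP90 class had 2 tested genes, 1 cytosolic and 1 of the endoplasmic reticulum. Hsp90ab1, the constitutive cytosolic HSP90 (chr17:45567775-45573271; positions are those of whole genes in GENCODE M21 on mm10), was at 6867 and 8320 CPM in BL/6 CMPs. In pMT-10 cells it was at 10621 and 11222 CPM in CMPs, 10693 and 9255 CPM in LSK cells and 6913 CPM in HSC. All 4 libraries of the first table were above the 3 of the second table. The difference between pMT-10 and BL/6 CMPs did not pass the test (log2 fold change 0.52 ± 0.18 SE, adjusted p = 0.0553), and neither did that between HSC and pMT-10 CMPs (-0.66 ± 0.22, adjusted p = 0.0588). Both passed without either pMT-10 CMP library (adjusted p down to 0.0174 and 0.0137), without a filter on low counts and by DESeq2, and the former also with library totals and with a minimum count of 50.

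Hsp90b1, or GRP94, the HSP90 of the endoplasmic reticulum (chr10:86690209-86705509), was at 728 and 669 CPM in BL/6 CMPs, 955 and 547 CPM in pMT-10 CMPs, 825 and 815 CPM in LSK cells and 1601 CPM in HSC. HSC lay above every other library, and the CMP groups overlapped. The gene was higher in HSC than in LSK cells (log2 fold change 0.96 ± 0.29, adjusted p = 0.0488) and than in pMT-10 CMPs (1.09 ± 0.29, adjusted p = 0.0261). Both calls were lost without any 1 of the LSK or BL/6 CMP libraries (adjusted p up to 0.203 and 0.0702). Between the strains it was not called (0.10 ± 0.25, adjusted p = 0.776), and without pMT-10 CMP replicate 1 the sign turned (-0.35).

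Its partners in the endoplasmic reticulum were described beside it. Hspa5, or BiP, the HSP70 of that compartment (chr2:34771970-34777547), was at 795 and 779 CPM in BL/6 CMPs, 955 and 967 CPM in pMT-10 CMPs, 890 and 687 CPM in LSK cells and 1270 CPM in HSC. HSC was again the highest library, but no difference passed (HSC against LSK cells 0.69 ± 0.22, adjusted p = 0.0560; HSC against pMT-10 CMPs 0.40 ± 0.22, adjusted p = 0.204). The first of these passed in 6 of 13 alternatives: without either pMT-10 CMP library (adjusted p down to 0.00523), with library totals, without a filter on low counts, with only the groups compared and by DESeq2. Dnajc3, a J protein of the endoplasmic reticulum that works with BiP (chr14:118937976-118981697), was at 30.0 and 31.6 CPM in BL/6 CMPs, 36.1 and 29.8 CPM in pMT-10 CMPs, 40.6 and 45.8 CPM in LSK cells and 57.0 CPM in HSC. It was higher in HSC than in pMT-10 CMPs (0.79 ± 0.25, adjusted p = 0.0446). That call was lost in 8 of 13 alternatives: without any 1 of the LSK or BL/6 CMP libraries, without a filter on low counts, with the replicate block, with only the groups compared and by DESeq2. Not every J protein of this compartment was highest in HSC. Dnajb9 was at 60.8 CPM in HSC and 41.8 to 75.0 CPM elsewhere. Dnajc10 was at 44.5 CPM in HSC and 29.1 to 80.1 CPM elsewhere, and neither was called in any comparison. Dnajb11, another luminal J protein, was highest in HSC at 162 CPM against 91.5 to 149 CPM elsewhere, and did not pass against LSK cells (0.62 ± 0.24, adjusted p = 0.1). It passed there without either pMT-10 CMP library (adjusted p down to 0.0120) and with only the groups compared in the fit.

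The promoters of these 3 genes, Hsp90b1, Hspa5 and Dnajc3, are the only ones among the 67 members with a promoter sequence that hold the endoplasmic reticulum stress element, that is CCAAT and CCACG with 9 bases of any kind between them, searched on both strands of the 300 bases around each start. The element is in 39 of all 32851 promoter windows (0.119%). The sequences, from RefSeq on GRCm38.p6, are given 5′ to 3′ on the strand of the gene with the matches in capitals, cut at the first annotated start. For Hspa5 30 bases around the match are given, because that match lies before the RefSeq start but after the first start in GENCODE. A match describes letters only, and the element was searched with the levels of these genes known.
Hsp90b1, chr10:86705510-86705694, minus strand: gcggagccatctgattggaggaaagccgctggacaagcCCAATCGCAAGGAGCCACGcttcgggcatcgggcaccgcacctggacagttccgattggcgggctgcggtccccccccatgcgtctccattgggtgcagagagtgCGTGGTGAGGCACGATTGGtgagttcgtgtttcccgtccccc
Hspa5, chr2:34772020-34772049, plus strand: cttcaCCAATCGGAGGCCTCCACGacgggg
Dnajc3, chr14:118937682-118937931, plus strand: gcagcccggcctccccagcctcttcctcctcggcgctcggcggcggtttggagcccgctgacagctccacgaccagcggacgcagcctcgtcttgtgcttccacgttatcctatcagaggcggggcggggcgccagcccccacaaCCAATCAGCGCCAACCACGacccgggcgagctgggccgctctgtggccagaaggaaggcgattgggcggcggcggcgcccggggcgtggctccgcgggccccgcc
Hsp90b1 has 2 matches, 194 and 89 bases before its RefSeq start, Hspa5 has 1 at 47 bases and Dnajc3 has 1 at 87 bases.

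Other genes of the endoplasmic reticulum and the unfolded protein response were counted in the same comparisons. Of 20 tested genes 7 rose and 0 fell in pMT-10 against BL/6 CMPs (9 and 0 at an unadjusted p under 0.05, 7 and 0 by DESeq2). That is 35.0% called, where 28.0% of all tested genes were called and 14.3% were higher, with a median log2 fold change of 0.35 against 0.01 over all tested genes, while Hspa5, Hsp90b1, Dnajc3 and Dnajb11 were not called there. Sdf2l1, which assists BiP, had the smallest adjusted p: it was at 67.4 and 68.8 CPM in BL/6 CMPs and 192 and 210 CPM in pMT-10 CMPs (1.56 ± 0.17, adjusted p = 0.00117). The call held without any 1 of the CMP or LSK libraries. Atf4, a transcription factor of the stress response, was at 416 and 436 CPM in BL/6 CMPs and 860 and 784 CPM in pMT-10 CMPs (0.95 ± 0.17, adjusted p = 0.00504). Calr, the lectin chaperone calreticulin, was at 872 and 954 CPM against 1524 and 2277 CPM (1.06 ± 0.21, adjusted p = 0.00786), and Sil1, which reloads BiP, was at 15.2 and 14.5 CPM against 34.6 and 34.9 CPM (1.23 ± 0.30, adjusted p = 0.0172). In none of the 4 did the libraries of the strains overlap. The 4 were chosen by their adjusted p, so this adds nothing to the test, and the share over all genes was not counted. The calls of Atf4, Calr and Sil1 were lost without either BL/6 CMP library (adjusted p up to 0.116).

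In LSK cells against pMT-10 CMPs, 1 of the 20 genes fell, Atf4, at 498 and 446 CPM in LSK cells (-0.80 ± 0.17, adjusted p = 0.0193; up to 0.146 without any 1 of the LSK or BL/6 CMP libraries). In HSC against LSK cells 2 rose and 1 fell, and in HSC against pMT-10 CMPs 3 rose and 1 fell. The shares called, 5%, 15.0% and 20.0%, were below those of all tested genes (11.8, 18.8 and 25.5%) in these 3 comparisons. Xbp1, the transcription factor at the centre of the response, was at 357 CPM in HSC and 116 to 149 CPM in the other libraries (against LSK cells 1.48 ± 0.21, adjusted p = 0.00295; against pMT-10 CMPs 1.52 ± 0.21, adjusted p = 0.00175). Manf, a secreted stress-response protein, was at 785 CPM in HSC and 272 to 444 CPM elsewhere (1.48 ± 0.20, adjusted p = 0.00218; 0.90 ± 0.20, adjusted p = 0.0124). Both genes were highest in HSC. With CMP or LSK libraries left out 1 at a time, only the second call of Manf was lost, without either BL/6 CMP library. The single HSC library could not be left out. Eif2ak3, the stress sensor PERK, was lowest in HSC, at 38.8 CPM against 51.4 to 88.6 CPM (-1.03 ± 0.26, adjusted p = 0.0252; -1.03 ± 0.26, adjusted p = 0.0204), and Creld2 rose against pMT-10 CMPs (1.11 ± 0.27, adjusted p = 0.0194). Without either LSK library the calls of Eif2ak3 and Creld2 were lost (adjusted p up to 0.116), and that of Eif2ak3 against LSK cells also without either BL/6 CMP library.

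Markers of other cells moved with these HSC values. The summed level of 9 immediate early genes, which respond to handling, was 1704 CPM in HSC and 684 to 1074 CPM elsewhere. For 5 B and plasma cell genes it was 54.0 CPM in HSC and 11.3 to 19.9 CPM elsewhere, nearly all of it Cd79b (52.3 CPM in HSC), with Ms4a1 at 0 and Jchain at 1.46 CPM. For 6 T and NK cell genes it was 4.90 CPM in HSC, all of it Klrb1c, and at most 0.348 CPM elsewhere. Of 6 stroma and endothelium genes, Cdh5, Cxcl12, Lepr and Col1a1 were at 0 in HSC, and the sum was 136 CPM there and 92.3 to 169 CPM elsewhere. Emcn, which marks endothelium and is also known from HSC, was at 17.5 CPM in HSC and at most 2.50 CPM elsewhere, and was called higher in both HSC comparisons (adjusted p = 0.00151 and 0.00233). The 6 mature neutrophil genes summed to 16.4 CPM in HSC and 1.27 to 13.9 CPM elsewhere, with Ltf called higher than in pMT-10 CMPs (adjusted p = 0.0488). The part of these in the HSC results was not tested.

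**Figure D2:**
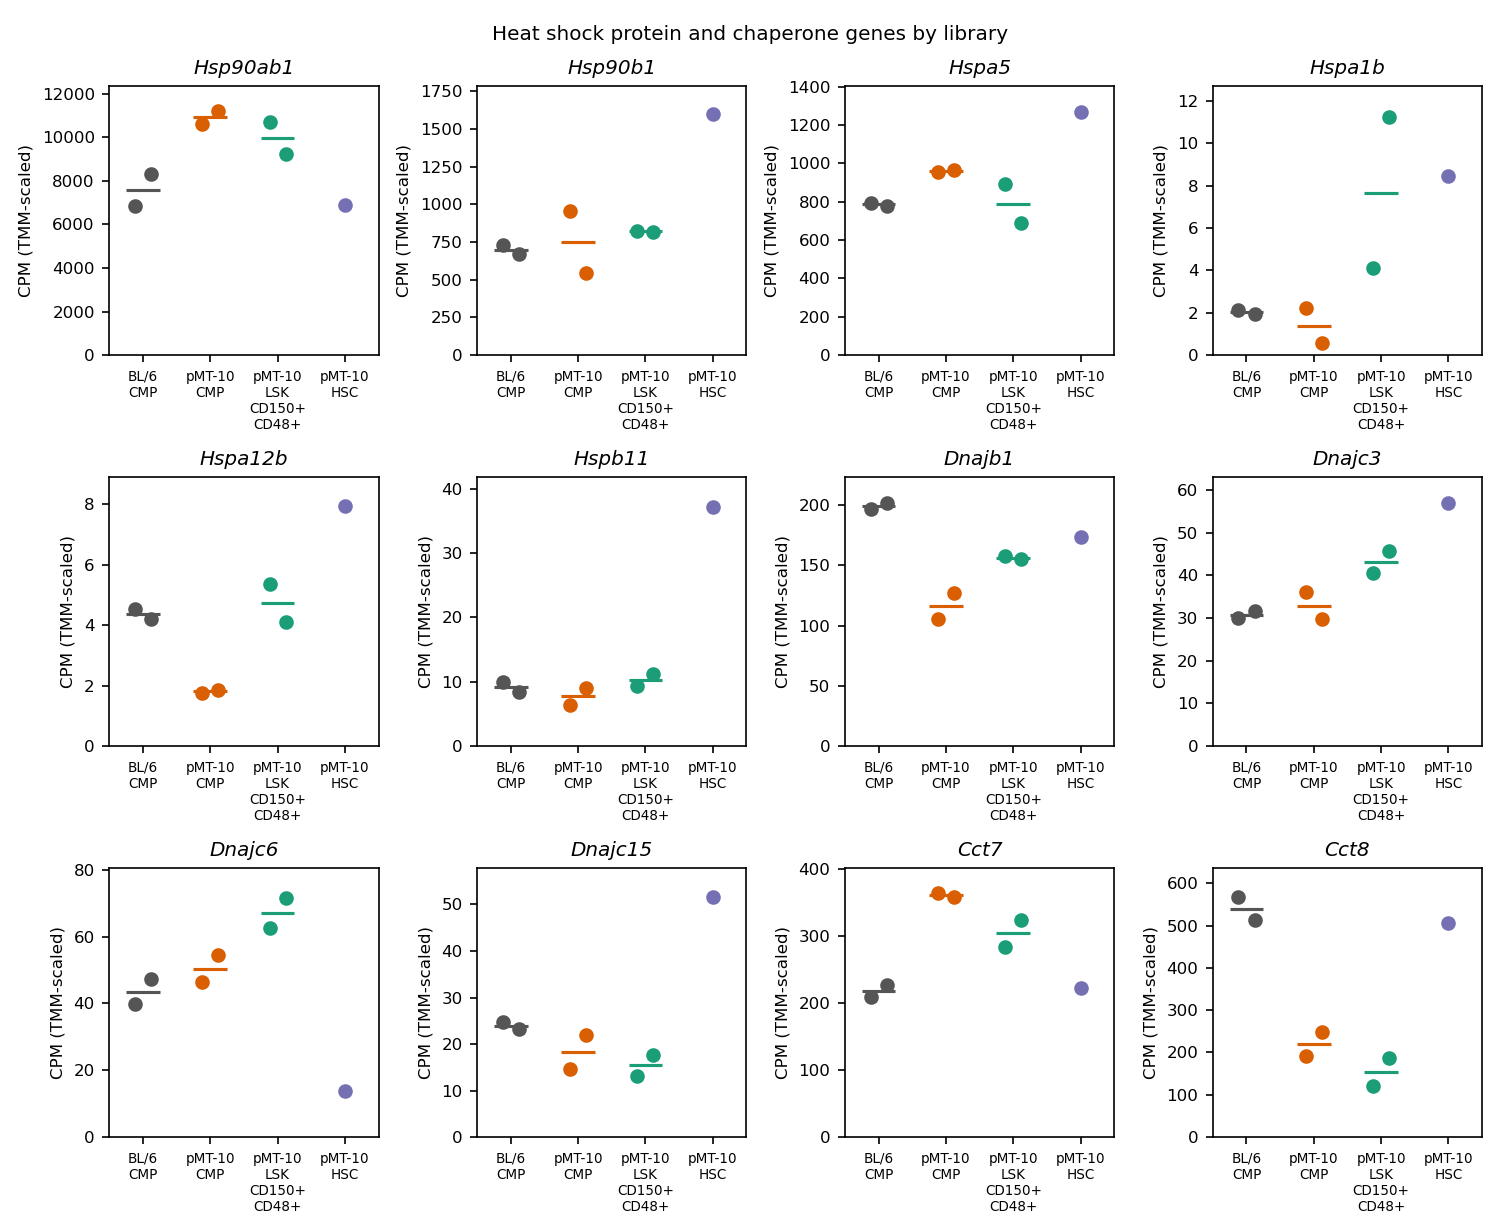
Level in CPM (vertical axis, from 0) of 12 members in the 7 libraries. Points are libraries and bars the means of the 2 libraries of a group. HSC stands above the others for Hsp90b1, Hspa5, Hspa12b, Dnajc3, Dnajc15 and Hspb11 and below them for Dnajc6.

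Among the 11 tested genes of the HSP70 and HSP110 class, 1 fell in pMT-10 against BL/6 CMPs, 1 rose in LSK cells against pMT-10 CMPs, 1 fell in HSC against LSK cells, and 2 rose and 1 fell in HSC against pMT-10 CMPs. The shares called were 9.09, 9.09, 9.09 and 27.3%, against 28.0, 11.8, 18.8 and 25.5% of all tested genes. The stress-inducible pair Hspa1a and Hspa1b lay near the bottom of the range. Hspa1b (chr17:34956436-34959238) had 23 and 24 counts in BL/6 CMPs, 20 and 5 in pMT-10 CMPs, 35 and 156 in LSK cells and 64 in HSC, or 2.12, 1.94, 2.21, 0.58, 4.09, 11.2 and 8.47 CPM. The LSK and HSC libraries were all above the 4 CMP libraries. The gene was higher in LSK cells than in pMT-10 CMPs (2.46 ± 0.65, adjusted p = 0.0404) and in HSC than in pMT-10 CMPs (2.58 ± 0.74, adjusted p = 0.0329).

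Single libraries decided these values. The first fold change was 1.54 without LSK replicate 2, and not called (adjusted p = 0.314), 3.74 when pMT-10 CMP replicate 1 was left out and 1.83 when replicate 2 was. The second was 3.84 and 1.93 without those CMP libraries. Both calls were lost without any 1 of the LSK or BL/6 CMP libraries (adjusted p up to 0.314 and 0.0634). Hspa1a (chr17:34969190-34972156) is a near-identical copy, so that reads may be split between the pair. It had 5 and 1 counts in BL/6 CMPs, 7 and 6 in pMT-10 CMPs, 8 and 26 in LSK cells and 26 in HSC, and did not pass (HSC against pMT-10 CMPs 2.21 ± 0.88, adjusted p = 0.0935). The HSC library was also highest in the summed level of immediate early genes, as given above, though not in Atf3 or Dusp1. Of these genes LSK replicate 2 was above replicate 1 in Fos (247 against 118 CPM), Fosb (20.2 against 5.03 CPM) and Jun (377 against 198 CPM). It was below replicate 1 in Egr1 (78.9 against 167 CPM) and Atf3 (2.81 against 4.68 CPM). The mature neutrophil genes summed to 12.4 CPM in LSK replicate 2 and 1.64 CPM in replicate 1. The part of these genes in the Hspa1b differences was not tested.

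The Hspa1b promoter holds the core of the heat shock element, an inverted pair of units written GAANNTTC, 97 bases before the RefSeq start. It is shown because this gene is the classical target of heat shock factor and was called. These letters, on either strand, are in 2582 of 32851 promoter windows (7.86%) and in those of 11 of the 67 members: Cct2, Cct8l1, Dnaja4, Dnajc27, Dnajc5g, Hspa1a, Hspa1b, Hspb3, Hspb6, Hspe1 and Hsph1. The longer form of 3 units, which is the same letters followed by 2 bases of any kind and a further GAA, is in 198 windows (0.603%), and among the members in those of Hspe1 and Hsph1. The Hspa1b sequence is given from RefSeq on GRCm38.p6, with the match in capitals.
Hspa1b, chr17:34959239-34959488, minus strand: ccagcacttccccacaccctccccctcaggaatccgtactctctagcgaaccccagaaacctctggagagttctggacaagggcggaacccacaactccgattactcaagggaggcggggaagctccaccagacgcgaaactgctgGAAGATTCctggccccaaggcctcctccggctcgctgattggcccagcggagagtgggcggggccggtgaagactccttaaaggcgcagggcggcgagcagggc
Neither Hspe1 nor Hsph1 was called in any comparison.

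Hspa12b, a distant HSP70 relative (chr2:131127280-131146321), was low in pMT-10 CMPs. It was at 4.52 and 4.20 CPM in BL/6 CMPs, 1.77 and 1.85 CPM in pMT-10 CMPs, 5.38 and 4.10 CPM in LSK cells and 7.94 CPM in HSC, and the pMT-10 CMP libraries were below all others. The gene fell in pMT-10 against BL/6 CMPs (-1.26 ± 0.40, adjusted p = 0.0415) and rose in HSC against pMT-10 CMPs (2.13 ± 0.45, adjusted p = 0.0110). The former call was lost without any 1 of the LSK or BL/6 CMP libraries, without a filter on low counts and by DESeq2. The difference between LSK cells and pMT-10 CMPs, in 1 table, was 1.37 ± 0.40 (adjusted p = 0.0535), and passed without either pMT-10 CMP library (adjusted p down to 0.0367) and without a filter on low counts.

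Hspa4l, of the HSP110 branch (chr3:40744495-40796103), was at 41.8 and 45.3 CPM in BL/6 CMPs, 75.3 and 57.0 CPM in pMT-10 CMPs, 70.6 and 79.9 CPM in LSK cells and 34.4 CPM in HSC. All libraries of the first table were above those of the second table. It was lower in HSC than in LSK cells (-1.13 ± 0.27, adjusted p = 0.0220) and than in pMT-10 CMPs (-0.94 ± 0.27, adjusted p = 0.0322). Both calls were lost without either LSK library or BL/6 CMP replicate 1 (adjusted p up to 0.110 and 0.0698), and the second also without BL/6 CMP replicate 2. Hsph1, the inducible cytosolic HSP110, ranged from 468 to 673 CPM, both ends in pMT-10 CMPs, and was called in no comparison (HSC against LSK cells 0.39 ± 0.25, adjusted p = 0.300).

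Hspe1, the co-chaperonin that caps the mitochondrial folding chamber (chr1:55088132-55091307), was at 562 and 560 CPM in BL/6 CMPs, 1083 and 494 CPM in pMT-10 CMPs, 532 and 601 CPM in LSK cells and 637 CPM in HSC. A single pMT-10 CMP library was high, and the groups overlapped. The log2 fold change between the strains was 0.49 ± 0.31 (adjusted p = 0.260). Leaving out pMT-10 CMP replicate 1 gave -0.18, and leaving out replicate 2 gave a difference that passed (0.95, adjusted p = 0.0003).

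The small heat shock class had 3 tested genes. Hspb11 (chr4:107253593-107279938) was at 9.97 and 8.48 CPM in BL/6 CMPs, 6.40 and 9.04 CPM in pMT-10 CMPs, 9.35 and 11.2 CPM in LSK cells and 37.2 CPM in HSC. HSC stood far above 6 libraries that lay close together. The gene was higher in HSC than in pMT-10 CMPs (2.27 ± 0.33, adjusted p = 0.00238) and than in LSK cells (1.85 ± 0.33, adjusted p = 0.00717). The first call held without any 1 of the CMP or LSK libraries, and the second was lost without either LSK library. The single HSC library could not be left out.

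Hspb6, or HSP20 (chr7:30552178-30555443), was at 4.71 and 7.35 CPM in BL/6 CMPs, 6.29 and 8.35 CPM in pMT-10 CMPs, 5.14 and 4.53 CPM in LSK cells and 1.72 CPM in HSC. HSC was the lowest library, and the gene was lower there than in pMT-10 CMPs (-2.08 ± 0.55, adjusted p = 0.0245; up to 0.0588 without either LSK library). Hspb9, known from testis (chr11:100713850-100714575), was at 2.86 and 3.88 CPM in BL/6 CMPs, 12.2 and 5.45 CPM in pMT-10 CMPs, 4.09 and 4.03 CPM in LSK cells and 7.01 CPM in HSC. It rose in pMT-10 against BL/6 CMPs (1.39 ± 0.44, adjusted p = 0.0424). The high library decided that: without pMT-10 CMP replicate 1 the fold change was 0.68 (adjusted p = 0.174), and the call was also lost without any 1 of the LSK or BL/6 CMP libraries.

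Of 37 tested J proteins, 5 were called in pMT-10 against BL/6 CMPs, 0 in LSK cells against pMT-10 CMPs (3 higher and 2 lower at an unadjusted p under 0.05, 1 lower by DESeq2), 5 in HSC against LSK cells and 5 in HSC against pMT-10 CMPs. Of all tested genes 28.0, 11.8, 18.8 and 25.5% were called in these comparisons. The smallest adjusted p was that of Dnajc6, auxilin, which with HSP70 strips clathrin from vesicles (chr4:101496648-101642799). It was at 39.7 and 47.2 CPM in BL/6 CMPs, 46.5 and 54.4 CPM in pMT-10 CMPs, 62.7 and 71.7 CPM in LSK cells and 13.9 CPM in HSC. HSC was well below all 6 others. It was lower in HSC than in LSK cells (-2.27 ± 0.29, adjusted p = 0.00191) and than in pMT-10 CMPs (-1.86 ± 0.29, adjusted p = 0.00291). Both calls held without any 1 of the CMP or LSK libraries, but the single HSC library could not be left out.

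Dnajc15, a J protein of the mitochondrial inner membrane (chr14:77820681-77875125), moved the other way. It was at 24.7 and 23.3 CPM in BL/6 CMPs, 14.7 and 22.0 CPM in pMT-10 CMPs, 13.1 and 17.7 CPM in LSK cells and 51.6 CPM in HSC. All libraries of the second table were above those of the first table, with HSC highest. The gene was higher in HSC than in LSK cells (1.74 ± 0.32, adjusted p = 0.00804; up to 0.0923 without either LSK library) and than in pMT-10 CMPs (1.49 ± 0.32, adjusted p = 0.0112). Dnajc28, at 5.56 CPM in HSC and 0.234 to 2.95 CPM elsewhere, also rose in both HSC comparisons (against LSK cells 2.80 ± 0.81, adjusted p = 0.0417; against pMT-10 CMPs 2.61 ± 0.82, adjusted p = 0.0452). The first of its fold changes was 4.50 without LSK replicate 2 and 2.17 without replicate 1, and the second was 3.55 without pMT-10 CMP replicate 1. Both calls were lost by DESeq2 and without any 1 of the LSK or BL/6 CMP libraries. Dnajc14, known as a binding partner of dopamine receptors, was lowest in HSC, at 55.1 CPM against 69.7 to 109 CPM, and fell against LSK cells (-0.83 ± 0.25, adjusted p = 0.0445; up to 0.190 without any 1 of the same libraries).

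Between the CMPs of the strains, 2 J proteins of class C rose and 1 fell, and 2 of class B fell. Dnajc4 (chr19:6987911-6992572) was at 12.1 and 13.3 CPM in BL/6 CMPs, 32.4 and 29.9 CPM in pMT-10 CMPs, 16.6 and 18.8 CPM in LSK cells and 15.4 CPM in HSC. The pMT-10 CMPs stood above every other library. It rose in pMT-10 against BL/6 CMPs (1.30 ± 0.24, adjusted p = 0.00531; up to 0.0883 without either BL/6 CMP library) and was lower in HSC than in pMT-10 CMPs (-1.02 ± 0.30, adjusted p = 0.0358; up to 0.0865 without any 1 of the LSK or BL/6 CMP libraries). In LSK cells against pMT-10 CMPs, within 1 table, its difference was -0.81 ± 0.23 (adjusted p = 0.0514). Dnajc13, an endosomal J protein, was at 110 and 104 CPM in BL/6 CMPs and 159 and 154 CPM in pMT-10 CMPs. It rose as well (0.55 ± 0.18, adjusted p = 0.0441). That call was lost without any 1 of the LSK or BL/6 CMP libraries and without a filter on low counts.

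Dnajb1, the inducible HSP40 that works with cytosolic HSP70 (chr8:83608193-83612653), was at 197 and 202 CPM in BL/6 CMPs, 105 and 127 CPM in pMT-10 CMPs, 158 and 155 CPM in LSK cells and 174 CPM in HSC. The pMT-10 CMPs were the lowest libraries. The gene fell in pMT-10 against BL/6 CMPs (-0.78 ± 0.18, adjusted p = 0.0120). Dnajb4, its close relative (chr3:152178511-152210302), was at 28.4 and 30.2 CPM in BL/6 CMPs, 14.1 and 19.2 CPM in pMT-10 CMPs, 24.3 and 30.0 CPM in LSK cells and 20.1 CPM in HSC. It fell too (-0.81 ± 0.25, adjusted p = 0.0394), again with the pMT-10 CMPs lowest. Dnajc16 (chr4:141760189-141790931) was at 80.6 and 68.0 CPM in BL/6 CMPs, 42.4 and 45.3 CPM in pMT-10 CMPs, 55.4 and 46.1 CPM in LSK cells and 46.9 CPM in HSC. Here the BL/6 CMPs were above all 5 pMT-10 libraries, and the gene fell in pMT-10 against BL/6 CMPs (-0.76 ± 0.20, adjusted p = 0.0229). All 3 calls were lost without either BL/6 CMP library (adjusted p up to 0.118, 0.227 and 0.226), and that of Dnajb4 also without either LSK library.

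Dnaja4 (chr9:54698873-54716315), a J protein of class A, was at 16.2 and 15.8 CPM in BL/6 CMPs, 4.41 and 9.50 CPM in pMT-10 CMPs, 2.45 and 5.40 CPM in LSK cells and 20.0 CPM in HSC. The libraries of the second table were all above those of the first table. It was higher in HSC than in LSK cells (2.31 ± 0.51, adjusted p = 0.0162). Without LSK replicate 2 the fold change was 3.02 (adjusted p = 0.0570), and without replicate 1 the call was lost as well (adjusted p = 0.125). The class A and C members with the most counts were called in no comparison. Dnaja2, a general cytosolic partner of HSP70, ranged from 207 to 281 CPM, and Dnajc19, of the mitochondrial import motor, from 150 to 236 CPM.

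The CCT/TRiC ring is built of different subunits in fixed proportion. Its called genes moved in opposite directions in pMT-10 against BL/6 CMPs and in HSC against pMT-10 CMPs, which both cross the tables. In LSK cells against pMT-10 CMPs, within 1 table, 7 of 8 fold changes were negative and 1 positive (median log2 -0.27). Of 8 tested genes, 2 rose and 1 fell in pMT-10 against BL/6 CMPs, 0 were called in LSK cells against pMT-10 CMPs (0 also at an unadjusted p under 0.05 and by DESeq2), 2 rose in HSC against LSK cells, and 1 rose and 2 fell in HSC against pMT-10 CMPs. The shares called were 37.5%, 0%, 25% and 37.5%, against 28.0, 11.8, 18.8 and 25.5% of all tested genes. Cct8 (chr16:87483326-87495873) was at 567 and 514 CPM in BL/6 CMPs, 191 and 249 CPM in pMT-10 CMPs, 121 and 187 CPM in LSK cells and 506 CPM in HSC. The libraries of the second table were more than 2 times those of the first table. It fell in pMT-10 against BL/6 CMPs (-1.30 ± 0.24, adjusted p = 0.00553) and was higher in HSC than in LSK cells (1.72 ± 0.28, adjusted p = 0.00499) and than in pMT-10 CMPs (1.20 ± 0.28, adjusted p = 0.0150). The first call was lost without BL/6 CMP replicate 1 (adjusted p = 0.0514) and the second without LSK replicate 1 (adjusted p = 0.0595).

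Cct7 (chr6:85451514-85468475) went the other way: it was at 210 and 227 CPM in BL/6 CMPs, 364 and 358 CPM in pMT-10 CMPs, 285 and 324 CPM in LSK cells and 222 CPM in HSC. It rose in pMT-10 against BL/6 CMPs (0.73 ± 0.17, adjusted p = 0.0135; up to 0.182 without either BL/6 CMP library) and was lower in HSC than in pMT-10 CMPs (-0.70 ± 0.21, adjusted p = 0.0393). Cct2 (chr10:117051001-117063814) was at 417 and 417 CPM in BL/6 CMPs, 557 and 656 CPM in pMT-10 CMPs, 524 and 467 CPM in LSK cells and 373 CPM in HSC. It rose in pMT-10 against BL/6 CMPs (0.54 ± 0.17, adjusted p = 0.0454) and was lower in HSC than in pMT-10 CMPs (-0.70 ± 0.22, adjusted p = 0.0443). For both genes the first table lay above the second table. Cct5 (chr15:31590800-31601804) was at 1435 and 1493 CPM in BL/6 CMPs, 951 and 1195 CPM in pMT-10 CMPs, 803 and 945 CPM in LSK cells and 1537 CPM in HSC, with the second table above the first table. It was higher in HSC than in LSK cells (0.81 ± 0.22, adjusted p = 0.0342). The calls of Cct5, of Cct2 and of Cct7 in HSC were lost without any 1 of the LSK or BL/6 CMP libraries. That of Cct2 between the strains was also lost without a filter on low counts.

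This split by table was not limited to the ring. In 21 of the 70 tested members (30.0%) the libraries of the tables did not overlap, 7 with the first table higher and 14 with the second table higher, against 21.7% of all tested genes. The 7 were Cct2, Cct7, Dnajb2, Dnajb14, Dnajc4, Hsp90ab1 and Hspa4l, and the 14 included Cct5, Cct8, Dnaja4, Dnajb1, Dnajc15, Dnajc28 and Pfdn1. When the difference between LSK cells and HSC, which cross the same tables, was subtracted from the difference between the CMPs, 6 members were called in place of 11, while the share of all tested genes called went from 28.0 to 18.6%. Of the 11 calls 1, Pfdn5, was kept (-5.25 in place of -1.93), 9 were lost, and Cct8 changed sign (0.42, adjusted p = 0.447). That contrast also subtracts whatever differs between the cell types, and table, strain and cell type cannot be told apart here.

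**Figure D3:**
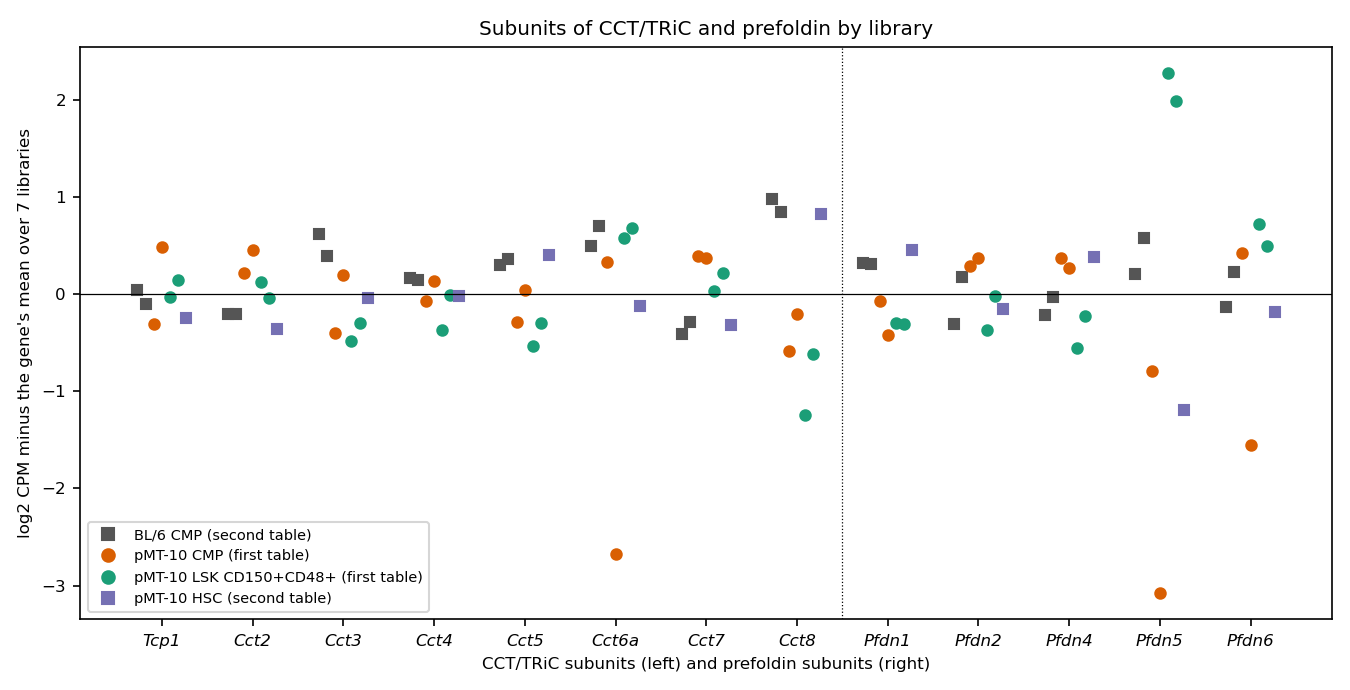
Level of each CCT/TRiC and prefoldin subunit gene, as log2 CPM minus the mean of that gene over the 7 libraries. Circles are libraries of the first table and squares those of the second table. Cct8 and Cct5 are higher in the second table, Cct7 and Cct2 in the first table, and Pfdn5 is highest in LSK cells.

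Prefoldin showed the largest difference among the members within a single table. Pfdn5 (chr15:102326116-102331873), a subunit also known for binding the Myc protein, was at 55.3 and 71.8 CPM in BL/6 CMPs, 27.7 and 5.68 CPM in pMT-10 CMPs, 233 and 190 CPM in LSK cells and 21.0 CPM in HSC. The LSK libraries were far above all others. It rose in LSK cells against pMT-10 CMPs (3.66 ± 0.56, adjusted p = 0.00506), fell in pMT-10 against BL/6 CMPs (-1.93 ± 0.53, adjusted p = 0.0263) and was lower in HSC than in LSK cells (-3.33 ± 0.74, adjusted p = 0.0164). The pMT-10 CMP libraries differed 4.88-fold. Leaving out their replicate 1 or their replicate 2 gave 5.21 or 2.93 for the first fold change and -3.48 or -1.20 for the second. All 3 calls were lost without any 1 of the LSK or BL/6 CMP libraries and without a filter on low counts. By DESeq2 the call in pMT-10 against BL/6 CMPs was lost too.

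Exons of Pfdn5 overlap those of Myg1 on the same strand in the annotation, and which gene the amplicon reads belong to was not tested. Pfdn1, at 108 and 107 CPM in BL/6 CMPs, 82.2 and 64.4 CPM in pMT-10 CMPs, 70.0 and 69.4 CPM in LSK cells and 119 CPM in HSC, was higher in HSC than in LSK cells (0.77 ± 0.23, adjusted p = 0.0437; up to 0.168 without any 1 of the LSK or BL/6 CMP libraries). Pfdn2, the prefoldin member with the most counts, was at 96.0 and 134 CPM in BL/6 CMPs, 145 and 154 CPM in pMT-10 CMPs, 92.0 and 117 CPM in LSK cells and 107 CPM in HSC. It was not called, and neither were Pfdn4 and Pfdn6. Over all classes, exons of 31 of the 81 members overlap those of another annotated gene, 28 of them on the opposite strand, among them Cct7, Cct8, Dnaja4, Hsp90b1 and Hspb6. Whether the counting used strand is not given in the sources used here.

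The 3 symbols outside the chaperone classes had low or steady levels. Hspbap1 was at 5.08 and 5.49 CPM in BL/6 CMPs, 4.08 and 17.7 CPM in pMT-10 CMPs, 3.97 and 4.89 CPM in LSK cells and 1.06 CPM in HSC. It was lower in HSC than in pMT-10 CMPs (-3.35 ± 0.93, adjusted p = 0.0296), but the fold change was -1.94 without pMT-10 CMP replicate 2, the single high library, and -4.05 without replicate 1. The call was lost without any 1 of the LSK or BL/6 CMP libraries (adjusted p up to 0.0787). Hspg2 was at 0.739 and 0.889 CPM in BL/6 CMPs, 0.110 and 0.116 CPM in pMT-10 CMPs, 0.468 and 0.648 CPM in LSK cells and 1.72 CPM in HSC. It was called higher in HSC than in pMT-10 CMPs (adjusted p = 0.0315), and the call was lost by DESeq2 and without any 1 of the LSK or BL/6 CMP libraries. The call rests on 13 counts against 2, a ratio of 15.2 with an exact 95% interval of 3.44 to 139 for counting error only. Hspbp1, a nucleotide exchange factor of HSP70, ranged from 210.5 to 293 CPM and was not called.

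Some members differed widely between the libraries of 1 group. Over the 70 tested members the median ratio between the libraries of a pair was 1.1 in BL/6 CMPs, 1.18 in LSK cells and 1.31 in pMT-10 CMPs. More than 2-fold apart were 1 member in BL/6 CMPs (Hspa1a), 6 in LSK cells and 13 in pMT-10 CMPs. Cct6a, a subunit of the CCT ring, differed most, with 385 CPM in pMT-10 CMP replicate 1 and 48.1 CPM in replicate 2, an 8.01-fold gap, against 282 to 500 CPM in the other libraries. Pfdn6 differed 3.93-fold, with 138 and 35.2 CPM, and Hspa4, another HSP110 relative, 2.15-fold, with 283 and 131 CPM. Neither replicate was the lower one throughout: Hspbap1 was 4.34 times higher in replicate 2.

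**Figure D4:**
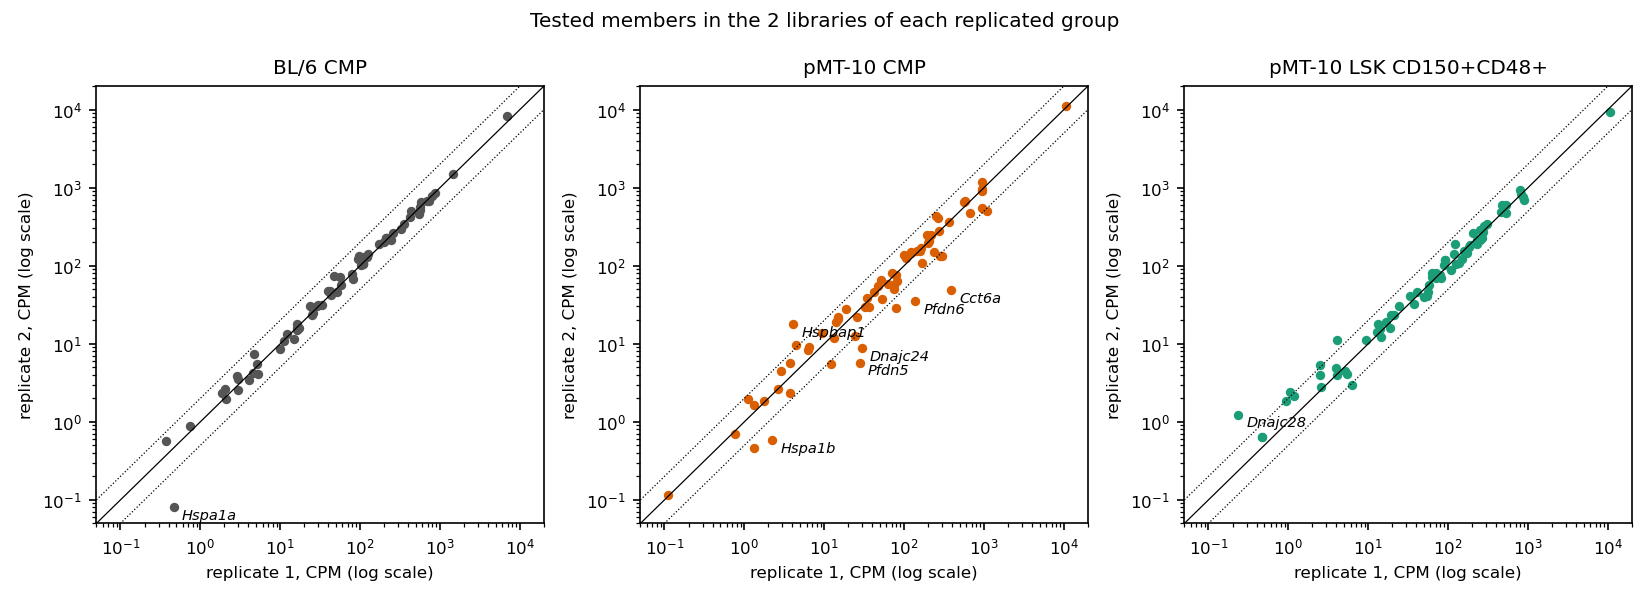
Level of each tested member in replicate 2 against replicate 1 of the 3 groups with 2 libraries, in CPM on log axes, with dotted lines at 2-fold. Members more than 3-fold apart are named. The pMT-10 CMP pair has 13 members beyond 2-fold, the LSK pair 6 and the BL/6 pair 1.

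The partners of the chaperones were counted in the same comparisons. Of 21 co-chaperones of HSP70 and HSP90, 3 rose and 4 fell in pMT-10 against BL/6 CMPs (33.3% called, against 28.0% of all tested genes). Tomm34, which links both chaperones to mitochondrial import, was at 66.8 and 74.2 CPM in BL/6 CMPs and 135 and 166 CPM in pMT-10 CMPs (1.09 ± 0.19, adjusted p = 0.00479). Stub1, the ubiquitin ligase CHIP, was at 152 and 134 CPM against 240 and 234 CPM (0.73 ± 0.17, adjusted p = 0.0139). Sugt1, an HSP90 co-chaperone, was at 77.0 and 66.0 CPM against 27.5 and 37.1 CPM (-1.15 ± 0.29, adjusted p = 0.0195), and Ahsa2 was at 49.7 and 53.4 CPM against 82.0 and 86.2 CPM (0.71 ± 0.18, adjusted p = 0.0193). None of the 4 overlapped between the strains, which adds nothing to the test, as the 4 were chosen by their adjusted p. Each call was lost without BL/6 CMP replicate 1, those of Ahsa2, Stub1 and Sugt1 also without replicate 2. Against the difference between LSK cells and HSC, Sugt1 changed sign (0.0636, adjusted p = 0.938). In LSK cells against pMT-10 CMPs 0 of the 21 were called (1 higher at an unadjusted p under 0.05, 1 by DESeq2), against 11.8% of all tested genes.

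In HSC against LSK cells 3 co-chaperones rose and 2 fell (23.8%, against 18.8% of all tested genes), and in HSC against pMT-10 CMPs 2 rose and 1 fell (14.3%, against 25.5%). Stip1, or HOP, which passes clients from HSP70 to HSP90, was at 742 CPM in HSC and 358 and 423 CPM in LSK cells (0.92 ± 0.20, adjusted p = 0.0158), but at 668 and 682 CPM in BL/6 CMPs. Fkbp4, an immunophilin that binds HSP90, was at 313 CPM in HSC and 620 and 539 CPM in LSK cells (-0.89 ± 0.21, adjusted p = 0.0223). Both calls were lost without any 1 of the LSK or BL/6 CMP libraries (adjusted p up to 0.111 and 0.115). Bag4, a nucleotide exchange factor of HSP70, was lowest in HSC, at 17.6 CPM against 29.7 to 63.6 CPM, and fell against pMT-10 CMPs (-1.53 ± 0.36, adjusted p = 0.0152). Sugt1, at 85.1 CPM in HSC, and Fkbp5, another immunophilin, at 122 CPM in HSC against 50.1 and 62.6 CPM, rose against pMT-10 CMPs (1.40 ± 0.34, adjusted p = 0.0184; 1.12 ± 0.27, adjusted p = 0.0167). These last 3 calls held without any 1 of the CMP or LSK libraries, but the single HSC library could not be left out.

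Of 4 tested heat shock factors and their regulators, 2 rose in pMT-10 against BL/6 CMPs, where 28.0% of all tested genes were called. Hsf1, the main heat shock factor, was at 57.8 and 56.9 CPM in BL/6 CMPs and 103 and 84.8 CPM in pMT-10 CMPs (0.71 ± 0.18, adjusted p = 0.0212), and Hsbp1, which binds it, was at 166 and 178 CPM against 245 and 299 CPM (0.66 ± 0.18, adjusted p = 0.0249). Both calls were lost without either BL/6 CMP library, that of Hsbp1 also without either LSK library. In HSC against pMT-10 CMPs 1 rose, Hsf2, at 13.5 CPM against 6.84 and 4.06 CPM (1.30 ± 0.40, adjusted p = 0.0405; up to 0.100 without any 1 of the LSK or BL/6 CMP libraries), and DESeq2 did not call it. In the other comparisons edgeR and DESeq2 called 0, with 1 higher and 1 lower at an unadjusted p under 0.05 in LSK cells against pMT-10 CMPs and 0 in HSC against LSK cells.

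Of 12 mitochondrial chaperones and proteases, 2 rose and 1 fell in pMT-10 against BL/6 CMPs, 3 fell in LSK cells against pMT-10 CMPs, 1 fell in HSC against LSK cells and 3 fell in HSC against pMT-10 CMPs. The shares called were 25%, 25%, 8.33% and 25%, against 28.0, 11.8, 18.8 and 25.5% of all tested genes. Trap1, the mitochondrial HSP90, was at 210 and 241 CPM in BL/6 CMPs, 516 and 623 CPM in pMT-10 CMPs, 292 and 297 CPM in LSK cells and 301 CPM in HSC. The pMT-10 CMPs stood above all other libraries. It rose in pMT-10 against BL/6 CMPs (1.34 ± 0.18, adjusted p = 0.00218), and was lower in LSK cells (-0.95 ± 0.18, adjusted p = 0.0126; up to 0.133 without either LSK library) and in HSC (-0.92 ± 0.23, adjusted p = 0.0194) than in pMT-10 CMPs. Among the inner-membrane proteases, Afg3l2 was lowest in HSC, at 44.5 CPM against 81.9 to 135 CPM, and fell against pMT-10 CMPs (-1.56 ± 0.26, adjusted p = 0.00384) and LSK cells (-1.01 ± 0.25, adjusted p = 0.0241; up to 0.114 without either LSK library or BL/6 CMP replicate 1). Spg7, its partner, rose in pMT-10 against BL/6 CMPs (1.35 ± 0.21, adjusted p = 0.00307; 0.0572 without BL/6 CMP replicate 1). Of 10 partners of CCT and prefoldin, 1 rose in pMT-10 against BL/6 CMPs (Tbca, which receives tubulin after folding, 0.90 ± 0.20, adjusted p = 0.0111; up to 0.166 without either BL/6 CMP library), 2 rose in HSC against LSK cells (Tbcb and Tbcc, further tubulin folding factors), and 0 were called in the remaining 2 comparisons by edgeR or DESeq2. At an unadjusted p under 0.05, 2 were lower in LSK cells against pMT-10 CMPs, and 2 were higher and 1 lower in HSC against pMT-10 CMPs.

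The 11 members without a test had few or no counts. Dnajb8, Dnajc22, Dnajc5b, Dnajc5g and Hspb7 had 0 counts in every library, which allows up to 0.216 to 0.397 CPM per library. The highest count in any library was 11 for Cct6b, 3 for Cct8l1, 2 for Hspa12a, Hspb2 and Hspb3 and 1 for Dnajb13. Several of these are known from testis, muscle or brain.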

How the data were processed

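Chaperone genes were measured in 7 libraries of sorted mouse bone marrow cells, made from total RNA with the Ion AmpliSeq mouse transcriptome kit, per the labels' protocols. The authors deposited 2 tables of raw read counts, 1 amplicon a gene. Per the submitters' processing notes the build is mm10. Aligner, counter and filters: not given in the sources used here. Reads carry no molecular identifiers, and the interval and floors below therefore hold for counting error alone. The floor is 3 counts, or 0.216 to 0.397 CPM. Each gene is seen at 1 amplicon, whose place was not analysed here, and levels are not compared between genes.

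The fit used edgeR 4.0.16 under R 4.3.3: filterByExpr with a minimum count of 10 left 11429 genes, TMM factors scaled the libraries, and all 7 entered 1 fit with a mean per group (3 residual degrees of freedom). Contrasts were tested with the robust quasi-likelihood F-test, with Benjamini-Hochberg adjustment over all tested genes, and called at an adjusted p under 0.05. Every adjusted p of a single gene comes from this test. Values after ± are standard errors of log2 fold changes. The analysis was tested on simulated data.

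Values in every library are given for up to 4 called members of each class with the smallest adjusted p, the member with the most counts of a class, and inducible heat shock genes. Of pathway lists up to 4 called genes per comparison are named, and 1 that this rule picks is not reported here. Dnajc3, Dnajb9, Dnajb11, Dnajc10, Dnajc14, Dnajc28, Cct6a, Pfdn6 and Hspa4 were named after their values were seen. Members, lists and promoter motifs were chosen with earlier results of these data known. Some members of these families are not analysed here. Alternatives were RLE factors, library totals, DESeq2 1.42.0, no count filter, a minimum count of 50, a block for the replicate number, a fit of only the groups compared, each replicate left out, and the contrast that subtracts the difference between LSK cells and HSC. Promoter windows held 250 bases before and 50 after each RefSeq start, and 67 of 81 members matched by symbol.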

Additional observations from a re-analysis of the deposited data

How the results depend on the processing

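Of 41 called values of members, 4 kept their call under every alternative (Dnajc6 in both HSC comparisons, Cct8 and Hspb11 in HSC against pMT-10 CMPs), 37 lost it under at least 1, and of these 1 changed sign. All 4 are comparisons with the single HSC library, which no alternative left out. RLE size factors ended none of the 41 calls, library totals 2, DESeq2 6, no filter on low counts 7, the replicate block 20 and only the groups compared 19. A minimum count of 50 ended 1 of 40. Leaving out LSK replicate 1 or 2 ended 30 or 29, BL/6 CMP replicate 1 or 2 30 or 28, and pMT-10 CMP replicate 1 or 2 1 or 0. Subtracting the difference between LSK cells and HSC ended 9 of 11 strain calls and turned the sign of 1 more. Of 46 called values of other pathway genes 39 lost their call under at least 1 alternative.

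The number of members called in pMT-10 against BL/6 CMPs was 11. It was 7 with the replicate block, 6 with the difference between LSK cells and HSC subtracted, 5 with only the groups compared and 0 to 28 with 1 replicate left out. In LSK cells against pMT-10 CMPs it was 2. It was 5 without a filter on low counts, 4 by DESeq2, 1 with the replicate block, 1 with only the groups compared and 0 to 22 with 1 replicate left out. For HSC against LSK cells it was 12, and 7 with the replicate block, 21 with only the groups compared and 1 to 25 with 1 replicate left out. For HSC against pMT-10 CMPs it was 16, and 8 with the replicate block, 4 with only the groups compared and 5 to 29 with 1 replicate left out. The fits of only the groups compared and of fewer libraries rest on fewer samples; otherwise the cause was not tested. Replicate numbers did not pair the libraries: deviations of same-numbered libraries correlated at -0.02, -0.08 and -0.02 over 11429 genes.

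With the difference between LSK cells and HSC subtracted, the strain difference changed sign in Hsp90ab1 (-0.00444), Cct8 (0.42) and Sugt1 (0.0636). Without pMT-10 CMP replicate 1 it changed sign in Hsp90b1 (-0.35) and Hspe1 (-0.18), neither of which was called. Both passed without replicate 2 (0.45 and 0.95). The cause was not tested. Depth limits members near the floor of 0.216 to 0.397 CPM, such as Hspg2, Hspa1a and Dnajc28.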
